A study of Rattus norvegicus with 6 samples.

Results

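Receptors for monoamines, acetylcholine and adenosine let modulatory transmitters set how hippocampal neurons and glia respond to fast synaptic input. The gene symbols of the table held 53 genes of these families by name: adrenergic receptors Adra1, Adra2 and Adrb, dopamine receptors Drd1 to Drd5, serotonin receptors Htr1 to Htr7, muscarinic receptors Chrm1 to Chrm5, nicotinic subunits Chrna and Chrnb, adenosine receptors Adora and histamine receptors Hrh. They were 53 of 32883 gene rows. The name pattern leaves out Adra2c and the nicotinic subunits Chrnd, Chrne and Chrng, so the families are not complete. Members were matched by name, and no measured value entered the match.

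Polyadenylated RNA was sequenced from primary cultures of hippocampus from Wistar rat pups of postnatal day 0. Between days 13 and 15 in vitro, a mixture for chemical long-term potentiation (cLTP) was given to 3 cultures. It held 50 µM forskolin, an activator of adenylyl cyclase, 50 nM rolipram, an inhibitor of cyclic AMP breakdown, and 200 µM picrotoxin, a blocker of inhibitory GABA-A receptors. The same amount of the solvent DMSO, without the drugs, was given to 3 control cultures. All groups thus share strain, age and tissue and differ in the mixture, and picrotoxin cannot be told apart from forskolin and rolipram. How long after treatment the cells were harvested is not stated in the sources used here. The labels call the libraries biological replicates but do not say whether separate litters gave the cultures, so each p-value rests on the spread among these 6 cultures.

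Most of these receptors signal through G proteins. Receptors that couple to Gs activate adenylyl cyclase and raise cyclic AMP, the messenger that forskolin raises directly. Receptors that couple to Gi lower cyclic AMP, those that couple to Gq activate phospholipase C and release calcium, and the nicotinic and Htr3 proteins are subunits of ligand-gated ion channels. In the hippocampus, noradrenaline and dopamine acting at Gs-coupled receptors are known for prolonging long-term potentiation, acetylcholine for raising excitability through muscarinic receptors, and adenosine for damping transmitter release through Adora1.

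The promoters of the 3 genes that the results turn on most are shown here, because cyclic AMP acts on genes through the cyclic AMP response element, bound by CREB. The windows are RefSeq sequences of build GRCr8, 250 bases before to 50 bases after the start site, and capitals mark each short form of the element (TGACG, on either strand).
Drd1 (chr17:10546354-10546653, + strand): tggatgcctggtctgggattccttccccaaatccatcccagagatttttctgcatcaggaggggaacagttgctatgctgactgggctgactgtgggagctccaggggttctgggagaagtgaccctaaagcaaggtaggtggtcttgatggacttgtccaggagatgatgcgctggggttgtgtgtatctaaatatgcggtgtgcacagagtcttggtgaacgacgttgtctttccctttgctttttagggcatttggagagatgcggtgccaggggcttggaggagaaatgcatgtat
Adrb1 (chr1:265776853-265777152, + strand): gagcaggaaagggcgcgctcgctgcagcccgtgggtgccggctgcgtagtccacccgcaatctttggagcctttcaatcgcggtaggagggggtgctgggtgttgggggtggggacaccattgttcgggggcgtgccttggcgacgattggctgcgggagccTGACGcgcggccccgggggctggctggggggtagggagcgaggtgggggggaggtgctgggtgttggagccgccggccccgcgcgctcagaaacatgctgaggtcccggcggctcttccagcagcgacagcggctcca
Chrm1 (chr1:214996109-214996408, + strand): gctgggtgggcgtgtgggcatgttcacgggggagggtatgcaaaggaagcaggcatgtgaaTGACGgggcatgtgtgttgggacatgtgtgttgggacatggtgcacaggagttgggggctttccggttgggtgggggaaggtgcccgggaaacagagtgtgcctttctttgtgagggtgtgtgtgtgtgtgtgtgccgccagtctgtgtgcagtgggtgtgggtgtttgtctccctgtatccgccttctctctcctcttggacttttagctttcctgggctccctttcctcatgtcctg
The full element TGACGTCA was in none of the 40 member promoters in the RefSeq table, and in 1.83% of all 33469 promoters. The short form, which is part of the full element, was in 7 of these 40 (17.5%) and in 21.2% of all promoters. Adrb1 held it 88 bases and Chrm1 189 bases before the start site, while the Drd1 window held none. The start site of the Drd1 window lies 1116 bases, and that of Chrm1 179 bases, inside the annotated span of the gene, so other start sites of these genes are outside these windows. A match in letters is a description, not a binding site. AP-1 sites (TGACTCA, both strands) were in 1 member promoter, that of Adora3, and in 4.63% of all promoters. The NR4A site AAAGGTCA, on both strands, was in 0 member promoters and 1.43% of all.

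Values are normalised read counts, which are not divided by gene length, so levels are compared between libraries and not between genes. The 6 libraries held 10668973 to 12776185 reads on genes, and 3 reads corresponded to a normalised count of 2.63 to 3.38. Of the 53 members, 33 had a mean of at least 10 over the 6 libraries, 10 had a mean between 1 and 10, and 10 had a mean below 1 and were not tested. Neuron markers (5 of 5 detected) summed to 36398 to 44671 in DMSO and 35425 to 45505 in cLTP libraries, and astrocyte markers (6 of 6 detected) to 110517 to 173242 and 127690 to 180826. Microglial markers summed to 236 in DMSO 3 and 239 in cLTP 3 but to at most 17.1 in the other 4 libraries. These are bulk cultures, so more transcript per cell and more cells of a type cannot be told apart.

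After cLTP the dopamine receptor gene Drd1 rose 3.44-fold, and it was the single member of the 43 tested that passed an adjusted p of 0.05 (limma, adjusted over all 17315 tested genes). Over all tested genes 9.02% passed, 5.71% higher and 3.31% lower. The beta adrenergic receptor gene Adrb1 was 1.77-fold of control and the muscarinic receptor gene Chrm1 0.709-fold of control. Neither passed this test, and both passed when the culture number was a block (23.5% of all genes passed that test, 12.9% higher and 10.7% lower). The labels do not pair the cultures, and the block takes same-numbered ones as pairs because of correlations in these same data. For cultures 1 and 2 these were 0.22 and 0.30, near the 0.19 and 0.16 of unlike numbers, and for culture 3 it was 0.54. Both Drd1 and Adrb1 encode Gs-coupled receptors, and Chrm1 a Gq-coupled receptor. In the lower direction 0 members passed in limma, edgeR and DESeq2, and 1, Chrm1, had an unadjusted limma p under 0.05. In all, 3 of the 43 had such a p (Drd1, Adrb1 and Chrm1), beside 21.0% of all tested genes. By edgeR the share of all genes called was 6.91% higher and 4.61% lower, and by DESeq2 6.91% and 3.64%; Drd1 was higher in both, and Adrb1 in DESeq2. The median log2 fold change of the 43 tested members was -0.10, beside 0.00 over all tested genes.

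**Figure D1:**
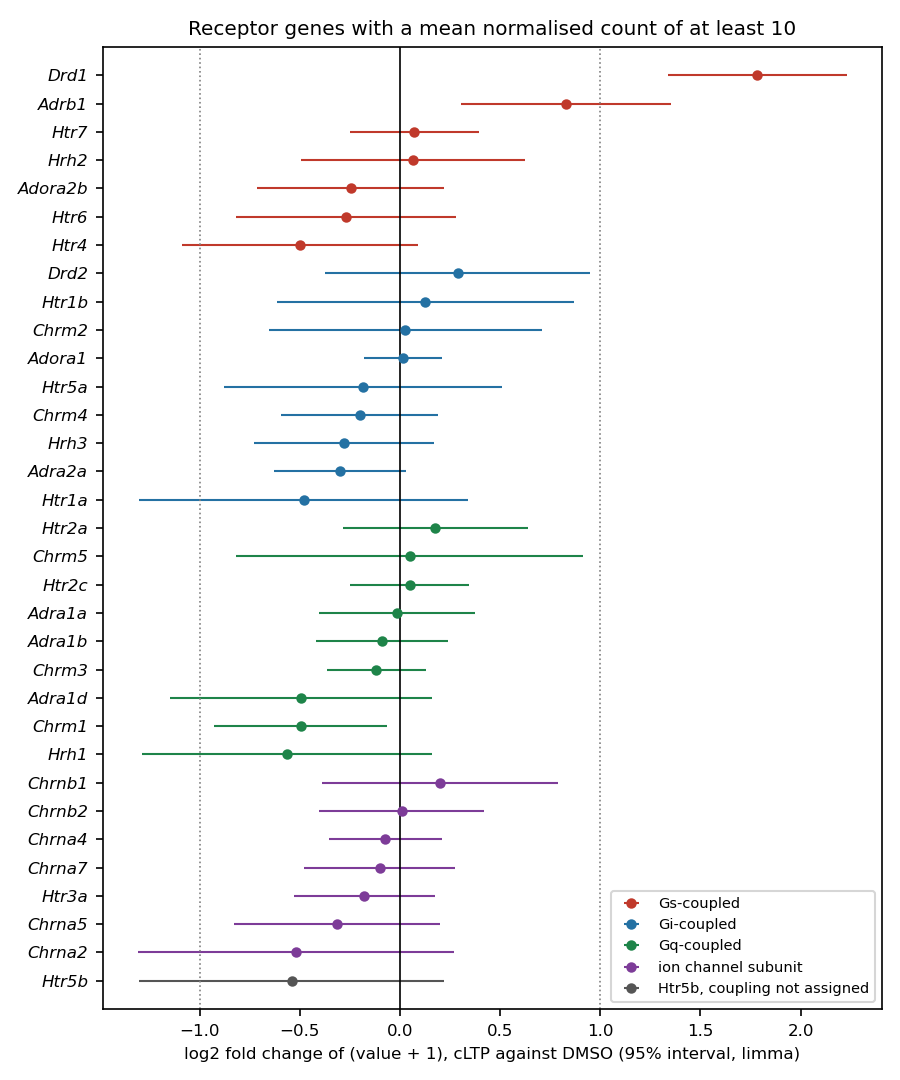
Log2 fold change of (normalised count + 1), cLTP against DMSO, for the 33 receptor genes with a mean of at least 10, with 95% intervals from limma (3 libraries per group), coloured by the G protein they couple to; dotted lines mark a doubling and a halving. Drd1 (1.78) stands to the right of the other genes, followed by Adrb1 (0.83), and most intervals span 0.

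Drd1 encodes the D1 dopamine receptor, which couples to Gs. DMSO 1, 2 and 3 gave normalised counts of 51.4, 55.3 and 66.0, and cLTP 1, 2 and 3 gave 188, 265 and 159. Each cLTP library lay above each DMSO library, and the lowest cLTP value was that of culture 3, which had the highest DMSO value. The group means were 57.6 ± 7.55 and 204 ± 55.0 (SD, n = 3 each), from 184 reads in all DMSO and 579 in all cLTP libraries. On the log2 scale Drd1 rose by 1.78 (SE 0.20, 95% interval 1.34 to 2.23), with an adjusted p of 0.000561 in limma. By culture number the ratio was 3.61, 4.73 and 2.38 on the (value + 1) scale. Of 5 neuron markers 0 passed in limma, edgeR and DESeq2, with 0 at an unadjusted p under 0.05, and the block called 1 of them higher. Beside these and the following marker counts, 9.02% of all tested genes passed in limma and 21.0% had such an unadjusted p. The block called 12.9% of all genes higher and 10.7% lower. Of the 3 markers of excitatory neurons, Slc17a6, a vesicular glutamate transporter, rose 1.92-fold and the other 2 did not pass, and all 3 markers of inhibitory neurons were higher with the block (summed level 11526 to 15545 in DMSO and 13131 to 19553 in cLTP). Some markers of other cells moved too. Of 6 markers of mural cells and fibroblasts 1 was lower in limma, edgeR and DESeq2, Pdgfrb, a growth factor receptor gene of pericytes (329 ± 56.2 in DMSO and 94.2 ± 24.7 in cLTP cultures, limma adjusted p = 0.00106). The list, Pdgfrb included, summed to 1280 to 1391 in DMSO and to 1071 to 1125 in cLTP libraries. Its other markers did not pass, also with the block. Means of Col1a1 (525 and 480), Col1a2 (126 and 111) and Rgs5 (4.02 and 2.09) were lower after cLTP. Those of Dcn (252 and 300) and Lum (114 and 119) were higher, so the fall of the sum is not shared by the whole list. The block alone called the astrocyte markers Slc1a3 and S100b higher and Aldh1l1 lower, and Olig2 of the oligodendrocyte lineage higher (summed level of that list 2448 to 3617 in DMSO and 2801 to 3840 in cLTP). The part of cell makeup in the rise of Drd1 was not tested.

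No other dopamine receptor gene passed. Drd2, which encodes a Gi-coupled receptor, had means of 37.9 ± 13.3 in DMSO and 45.1 ± 10.3 in cLTP cultures, which differ by 0.29 on the log2 scale (95% interval -0.37 to 0.95, limma adjusted p = 0.659). Drd5, the other Gs-coupled dopamine receptor gene, had 8 reads over all 6 libraries. Drd3 had 1 read and Drd4 had 3, so a response of these genes was not detectable at this depth.

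Adrb1 encodes the beta adrenergic receptor that forebrain neurons use most, coupled to Gs. DMSO 1, 2 and 3 held 88.5, 88.7 and 64.0 normalised counts of it, and cLTP 1, 2 and 3 held 154, 183 and 101. The groups did not overlap, and culture 3 gave the lowest value of both. The means were 80.4 ± 14.2 and 146 ± 42.0, which differ by 0.83 on the log2 scale (95% interval 0.30 to 1.35). The limma adjusted p was 0.0628 without a block and 9.37e-05 with it. By culture number the ratio was 1.74, 2.06 and 1.56. It passed without cLTP 3 (limma adjusted p = 0.0117) and without culture 3 of both groups (0.00361), and it passed in DESeq2 (0.0154) but not in edgeR (0.0528). The other limma alternatives without a block gave an adjusted p from 0.0404, after quantile normalisation, to 0.204, without cLTP 1. Adrb3, which encodes a beta receptor known from fat tissue, had 21 reads over all libraries and did not pass.

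**Figure D2:**
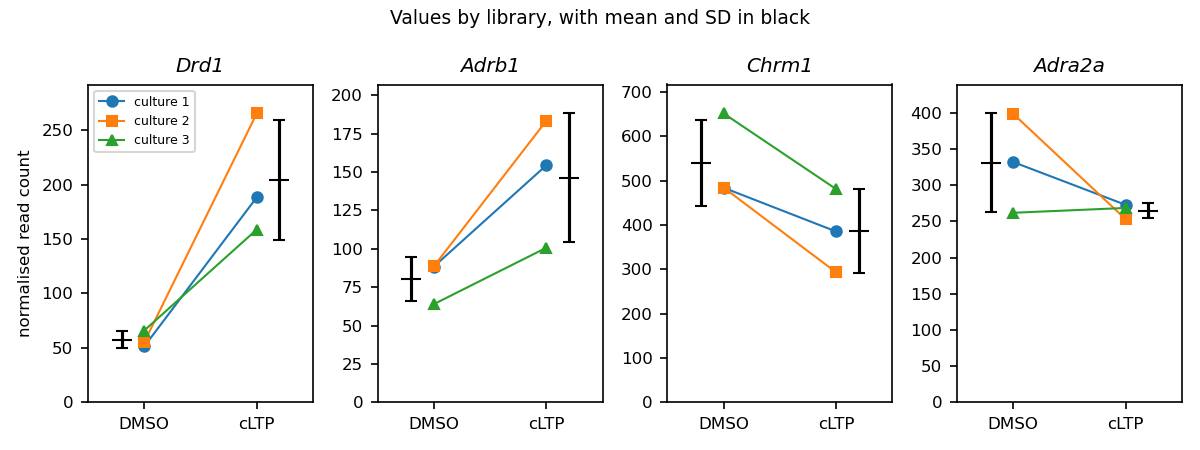
Normalised read counts of Drd1, Adrb1, Chrm1 and Adra2a in each library, with lines joining cultures of the same number and the mean ± SD of each group in black (n = 3). The lines of Drd1 and Adrb1 all go up and those of Chrm1 all go down, while culture 3 of Adra2a is at 262 and 269.

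The remaining Gs-coupled receptor genes had the following values, none of which passed. The serotonin receptor gene Htr4 was at 36.1 ± 9.87 in DMSO and 25.0 ± 5.42 in cLTP cultures (limma adjusted p = 0.323). Htr6 was at 32.5 ± 5.62 and 27.0 ± 6.30, and Htr7 at 111 ± 12.6 and 116 ± 12.9. The Htr7 interval, from -0.25 to 0.39 on the log2 scale, leaves out a change of the size seen for Drd1. Adora2b, a low-affinity adenosine receptor gene, was at 129 ± 24.1 and 109 ± 25.7, and the histamine receptor gene Hrh2 at 27.7 ± 1.87 and 29.8 ± 8.47. Adora2a, the adenosine receptor gene known from striatum, had 10 reads over all libraries. Of the 11 Gs-coupled members, 1 was higher and 0 lower in limma, beside 5.71% and 3.31% of all tested genes. At an unadjusted p under 0.05 there were 2, both higher, beside 21.0% of all genes in either direction. The block called 2 higher and 0 lower, beside 12.9% and 10.7%.

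Receptors that lower cyclic AMP through Gi showed no member past the threshold. Of 16 such genes 10 were tested, and 0 passed in limma, with the block, in edgeR or in DESeq2, with 0 at an unadjusted p under 0.05. The shares of all tested genes were 9.02% in limma, 23.5% with the block and 21.0% at that unadjusted p. Adra2a, an adrenergic autoreceptor and postsynaptic receptor gene, stood at 332, 399 and 262 in DMSO 1, 2 and 3, while cLTP 1, 2 and 3 gave 273, 253 and 269. Cultures 1 and 2 were lower after cLTP and culture 3 was not, so the groups overlapped. The difference was -0.30 on the log2 scale (95% interval -0.63 to 0.03; limma adjusted p = 0.281, or 0.0628 with the block). The gene passed without DMSO 3 (log2 fold change -0.46, limma adjusted p = 0.0383) and without culture 3 of both groups (-0.47, 0.0337).

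Adora1, the adenosine receptor that restrains transmitter release, had the narrowest interval of the 33 members with a mean of at least 10. DMSO 1, 2 and 3 held 1202, 1183 and 1283 normalised counts of it and cLTP 1, 2 and 3 held 1277, 1114 and 1326. The groups overlapped, and the 95% interval of the fold ran between 0.883 and 1.16 (limma adjusted p = 0.948). The muscarinic genes Chrm2 (25.4 ± 4.56 and 26.8 ± 9.86) and Chrm4 (144 ± 14.3 and 126 ± 26.7) encode receptors that restrain cyclic AMP, and neither passed. The histamine receptor gene Hrh3 was at 92.2 ± 12.7 and 76.8 ± 19.9, and the serotonin receptor gene Htr1a at 46.5 ± 25.4 and 31.0 ± 8.45. The DMSO value of Htr1a ranged from 30.4 to 75.8, the highest being culture 3. Htr1b was at 21.1 ± 9.01 and 22.4 ± 6.12, and Htr5a at 18.2 ± 6.61 and 15.2 ± 0.455. The related gene Htr5b, to which no coupling was assigned, was at 24.1 ± 2.81 and 17.3 ± 7.22 (limma adjusted p = 0.420).

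Among the Gq-coupled receptors, Chrm1 was the member called lower in the block test. It encodes the main postsynaptic muscarinic receptor of hippocampal pyramidal cells. Normalised counts of 484, 485 and 652 were found in DMSO 1, 2 and 3, against 386, 293 and 481 in cLTP 1, 2 and 3. Each cLTP library lay below each DMSO library, narrowly so for cLTP 3 and DMSO 1, and culture 3 was highest in both groups. The means were 540 ± 96.7 and 387 ± 94.0, a log2 difference of -0.50 (95% interval -0.93 to -0.06). The limma adjusted p was 0.171 without and 0.000136 with the block, and 0.0297 without culture 3 of both groups. The ratio by culture number was 0.797, 0.606 and 0.739.

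The other 2 Gq-coupled muscarinic genes did not pass: Chrm3 was at 410 ± 30.5 and 378 ± 45.1, and Chrm5 at 51.8 ± 29.2 and 49.9 ± 14.5. Hrh1, the histamine receptor gene of wakefulness circuits, was at 112 ± 16.9 and 80.1 ± 32.6, with 42.5 in cLTP 2 below all other libraries. The alpha adrenergic genes Adra1a (79.0 ± 13.9 and 77.7 ± 8.05) and Adra1b (92.3 ± 8.30 and 86.8 ± 9.82) did not pass either, and Adra1d was at 30.7 ± 10.6 and 20.8 ± 3.42 (limma adjusted p = 0.386). The serotonin receptor genes Htr2a, a target of hallucinogens, and Htr2c were at 241 ± 63.1 and 270 ± 56.0, and at 138 ± 15.8 and 142 ± 12.0. Of the 10 Gq-coupled members all were tested, with 0 past the threshold in limma, edgeR and DESeq2. At an unadjusted limma p under 0.05 there was 1, beside 21.0% of all genes, and the block called 1 lower, beside 10.7%.

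The channel subunits were measured well for the main hippocampal receptor types and did not pass. Chrna7, which forms homomeric calcium-permeable channels, gave 753, 709 and 912 in DMSO 1, 2 and 3 against 639, 649 and 952 in cLTP 1, 2 and 3, and culture 3 was highest in both groups. The groups overlapped, with a log2 difference of -0.10 (95% interval -0.48 to 0.28). Chrna4 and Chrnb2, the subunits of the main high-affinity nicotine receptor of brain, were at 186 ± 17.7 and 177 ± 20.6, and at 666 ± 121 and 674 ± 158. The accessory subunit gene Chrna5 was at 46.0 ± 5.39 and 37.4 ± 9.32, Chrna2 at 15.1 ± 6.00 and 9.91 ± 2.30, and Chrnb1, a subunit of the muscle receptor, at 54.8 ± 18.7 and 61.0 ± 9.53. Htr3a, the obligatory subunit of the serotonin-gated channel, was at 83.0 ± 10.1 and 73.1 ± 8.0. Of 15 channel members 11 were tested, and 0 passed in limma, with the block, in edgeR or in DESeq2, with 0 at an unadjusted p under 0.05. Among all tested genes 9.02% passed in limma, 23.5% passed with the block, and 21.0% had such an unadjusted p.

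A mean below 10 was found for 20 members. The 10 tested ones, among them Chrna1, Chrna3, Chrnb4, Htr1f, Htr2b, Htr3b, Adora2a, Adrb3 and Drd5, had means from 1.35 to 6.77, log2 fold changes from -0.92 to 0.55 and no limma adjusted p under 0.538. The 10 with a mean below 1 were Chrna6, Chrna9, Chrna10, Chrnb3, Adora3, Adra2b, Drd3, Drd4, Hrh4 and Htr1d, each with at most 6 reads over the 6 libraries. Chrna6 and Hrh4 had 0 reads in every library. In 1 library alone this allows a level of up to 3 reads, by counting error only, and the 6 libraries together allow less per library. These genes were not detectable or barely so at this depth, which is no statement on their absence.

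Of the 33 members with a mean of at least 10, 32 did not pass, and for 25 of the 33 the 95% interval lay wholly within a doubling and a halving. The other 8 were Drd1, Adrb1, Htr4, Htr1a, Adra1d, Hrh1, Chrna2 and Htr5b, for which the interval reached past one of these sizes. The groups did not overlap for 3 of these 33 genes, Drd1 and Adrb1 above and Chrm1 below, beside 31.1% of all 14095 genes with such a mean (16.0% above and 15.1% below). Within all 3 same-numbered cultures, 3 of the 33 were higher and 13 lower after cLTP, beside 29.7% and 27.8% of all genes with such a mean.

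Many members had their highest or lowest value in the culture numbered 3 of each group, a pairing that the labels do not state. In both groups culture 3 had the highest value of 18 of the 33 genes and the lowest of 4, beside 24.5% and 26.3% of all genes with a mean of at least 10. The differences were largest for Chrm5 and Htr1a in DMSO cultures, where culture 3 was 2.39-fold and 2.34-fold of the mean of cultures 1 and 2, on the log2(value + 1) scale. In cLTP cultures the same genes were at 1.58-fold and 1.49-fold. Htr1b (1.92-fold and 1.53-fold), Htr2a (1.53-fold and 1.39-fold), Chrna7 (1.25-fold and 1.48-fold) and Chrnb2 (1.34-fold and 1.45-fold) showed the same direction. The genes with the lowest value in culture 3 of both groups were Adrb1 (0.726-fold and 0.601-fold), Adora2b, Htr6 and Chrnb1. Drd1 did neither, at 1.23-fold in DMSO and 0.711-fold in cLTP culture 3. With other settings 1 to 11 members were called. Quantile normalisation and leaving out cLTP 3 called Drd1 and Adrb1 higher (5.18% and 5.01% of all genes higher, 4.61% and 2.00% lower). Leaving out DMSO 3 called Drd1 higher and Adra2a lower (5.45% and 2.72% of all genes), and leaving out culture 3 of both groups called Drd1 and Adrb1 higher and Adra2a and Chrm1 lower (6.14% and 3.30%). The block with quantile normalisation called the same 4 genes (9.40% and 15.7% of all genes). The block with equal totals called Drd1 and Adrb1 higher and 9 members lower, where 8.15% of all genes were higher and 23.1% lower. These 9 were Adora2b, Adra2a, Chrm1, Chrm3, Chrm4, Chrna7, Hrh3, Htr1a and Htr4. Culture 3 also had more microglial marker counts and fewer astrocyte marker counts, as given above, and the part of these in the receptor levels was not tested.

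**Figure D3:**
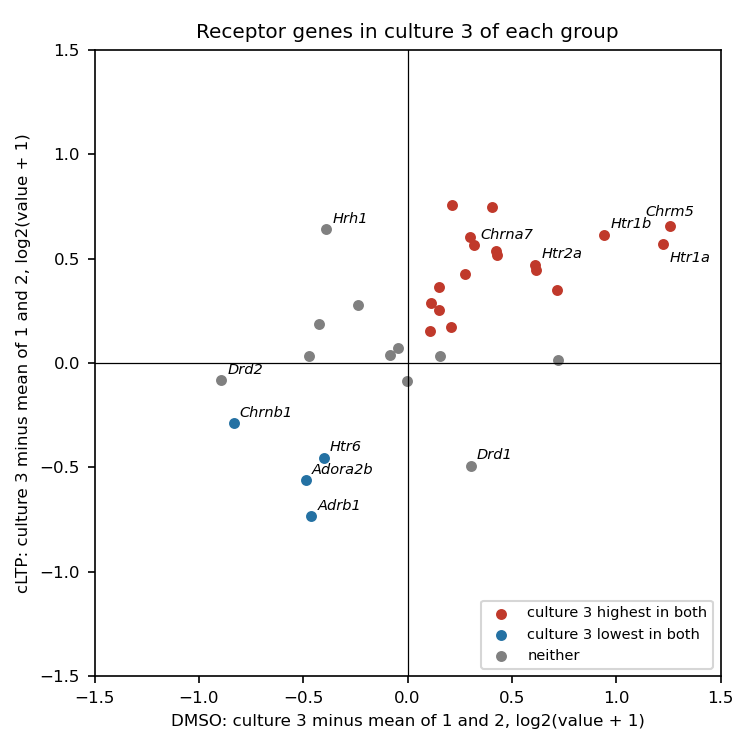
For the 33 receptor genes with a mean of at least 10, the log2(value + 1) difference of culture 3 from the mean of cultures 1 and 2, in DMSO (horizontal axis) and cLTP (vertical axis) cultures, 1 library each for culture 3. The 18 genes in red had their highest value and the 4 in blue their lowest value in culture 3 of both groups; Drd1 lies below 0 on the cLTP axis.

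Most genes that make, store and clear the transmitters did not pass. Chat, which makes acetylcholine, had means of 0.927 ± 0.952 and 0.715 ± 0.622, and Tph2, which makes neuronal serotonin, 6.17 ± 3.84 and 7.0 ± 3.82. Of 19 monoamine genes 15 were tested and 1 passed: Gch1, which makes the cofactor of the hydroxylases that produce dopamine and serotonin, rose from 12.3 ± 4.75 to 29.4 ± 5.96 (2.34-fold, limma adjusted p = 0.0414). It passed in edgeR (0.0368) and with the block (0.00300). It did not pass in DESeq2 (0.0511), with equal library totals (0.0512), or without DMSO 1, DMSO 2, cLTP 1, cLTP 2 or cLTP 3 (limma adjusted p from 0.0675 to 0.138). With the block Slc22a3, a low-affinity monoamine transporter, was higher too (44.8 ± 12.8 and 64.5 ± 9.86, limma adjusted p = 0.0287). The block with equal totals left 1 gene of this list higher, Gch1, and called 1 lower. Among all tested genes 5.71% were higher and 3.31% lower in limma without a block. The block called 12.9% of all genes higher and 10.7% lower, and with equal totals 8.15% and 23.1%. Th, the rate-limiting enzyme of dopamine synthesis, was at 23.8 ± 6.62 and 31.2 ± 13.1 and did not pass.

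For acetylcholine synthesis and clearance and nicotinic receptor assembly, 0 of 14 tested genes passed in limma, edgeR and DESeq2 (0 at an unadjusted p under 0.05), and the block called 1 higher, Tmem35a (1823 ± 264 and 2215 ± 438), which helps to assemble nicotinic receptors. The block called 1 higher and 3 lower with equal totals, and 1 higher and 2 lower with quantile normalisation. For adenosine formation and clearance it was 0 of 10 in these tests and with the block, with Entpd1, an enzyme that breaks down extracellular ATP, at an unadjusted p under 0.05 (52.4 ± 1.71 and 73.7 ± 18.2). For receptor kinases and arrestins, which switch off active receptors, it was 0 of 7 in the same tests, with Grk5 at an unadjusted p under 0.05 (102 ± 8.76 and 129 ± 17.2). The block with equal totals called 0 of these 7 higher and 2 lower, and with quantile normalisation 1 higher and 1 lower. For the adenosine list the block with quantile normalisation called 1 higher. Beside these counts, 9.02% of all tested genes passed limma without a block, and 21.0% had an unadjusted p under 0.05. The block called 12.9% of all genes higher and 10.7% lower. With equal totals it called 8.15% and 23.1%, and with quantile normalisation 9.40% and 15.7%.

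The G protein alpha subunits, through which the receptors signal, had 0 of 13 rows past the threshold in limma, edgeR and DESeq2. At an unadjusted limma p under 0.05 there were 2, beside 21.0% of all tested genes. The block called 5 higher and 0 lower, beside 12.9% and 10.7% of all genes. These 5 were both rows of Gnas and the rows of Gna13, Gnai3 and Gnao1. Gnas, which encodes the Gs alpha subunit, has a pair of rows in the table, and the row with more reads was at 5800 ± 136 and 6797 ± 456 (limma adjusted p = 0.142, or 0.00119 with the block). Gna13 was at 1617 ± 282 and 2331 ± 718 (0.227, or 0.00490 with the block). Gnai3 was at 1239 ± 209 and 1447 ± 133 (limma adjusted p = 0.345, or 0.00565 with the block). Gnao1 was at 5173 ± 331 and 5758 ± 454 (limma adjusted p = 0.387, or 0.0159 with the block). The median log2 fold change of the 13 rows was 0.15 as deposited, beside 0.00 for all tested genes. It was 0.03 with equal library totals and -0.01 after quantile normalisation, where that of all genes was -0.11 and -0.05. It thus lay above the median of all genes under each scaling, while its size and sign moved with the scaling. The block called 2 rows higher and 2 lower with equal totals, and 2 higher and 0 lower with quantile normalisation. Of all tested genes it called 8.15% higher and 23.1% lower with equal totals, and 9.40% and 15.7% with quantile normalisation. Of the family genes outside the name pattern, Adra2c was at 127 ± 26.9 and 99.8 ± 11.4 and Chrne at 18.6 ± 3.36 and 29.1 ± 5.01, with 0 of 2 past the threshold in limma, the block, edgeR and DESeq2 and Chrne at an unadjusted p under 0.05; Chrnd had 0 reads. The block with equal totals called 1 of these 2 lower.

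**Figure D4:**
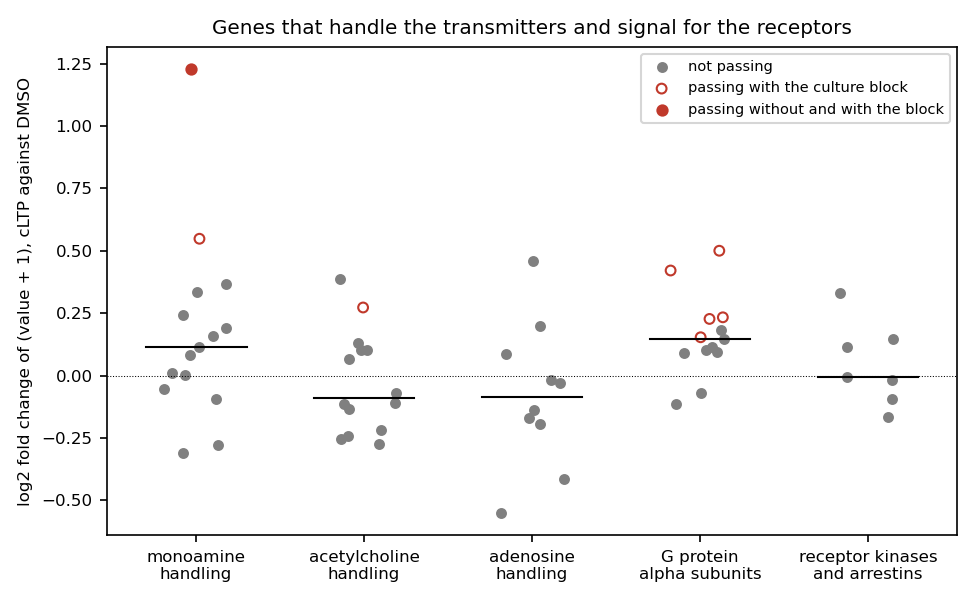
Log2 fold change of (normalised count + 1), cLTP against DMSO, for each tested gene of the 5 lists of transmitter handling and receptor signalling, with the list median as a black line; filled red points passed limma without and with the culture block, open red points with the block. Gch1, at 1.23, is the filled point, and 5 of the open points are G protein alpha subunit rows.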

How the data were processed

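For every gene row the deposited table gives a normalised signal in each library. The authors made it, per the submitters' processing notes, with bcl2fastq, STAR and DESeq2 on rat genome build rn6; the sources used here do not state versions, annotation, or how and on which strand reads were counted, so reads of overlapping genes could be shared. Libraries were strand-specific, per the labels' protocols. The labels' protocol also names sorted cells of operated animals as RNA source, which does not match the cultures, and was not used. Dividing each library's values by that of 1 read (0.878 to 1.13) gave whole numbers, within 0.01, for 100% of them, so whole reads were recovered and the deposited signal is read counts over 1 size factor per library. The families to describe and the gene lists were chosen with earlier results of these data known, so their choice is not independent of the data; within the families, members were taken by symbol alone.

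Genes whose mean over the libraries reached 1 were tested with limma 3.58.1 in R 4.3.3 (eBayes, trend and robust) on log2(value + 1), 3 cLTP against 3 DMSO libraries, two-sided, with Benjamini-Hochberg adjustment over all 17315 tested genes and a threshold of 0.05. Fold changes on this scale understate those of low genes. The recovered reads also went into count models as alternatives, in which edgeR 4.0.16 (TMM, quasi-likelihood) called 1627 genes and DESeq2 1.42.0 called 1629. Deviations of same-numbered cultures from their group means had correlations across genes of 0.22, 0.30 and 0.54. These were above a cut of 0.1, and on that ground the culture number was taken to pair libraries. The correlations of DMSO 1 with cLTP 2 and DMSO 2 with cLTP 1, 0.19 and 0.16, were above it too. The cut thus sets culture 3 apart (-0.29 to -0.37 with unlike numbers) but does not tell which of cultures 1 and 2 belong together. The labels do not state the pairing, and the block results rest on it. No library repeated another (chi-square over its degrees of freedom was 3.84 to 18.8 between replicates). Every member was described; members with a mean of at least 10 are given by values and the rest by a range, and from each list up to 2 genes past the threshold in each direction with the lowest p are named. Other list genes in the text (Chat, Tph2, Th, Slc22a3, Tmem35a, Entpd1, Grk5, Gnas, Gna13, Gnai3 and Gnao1), and the library values of Adrb1, Chrm1, Adra2a, Adora1 and Chrna7, were picked with their values already seen. The lists named 111 genes, of which 107 matched by symbol, 1 by a synonym, and 3 were not analysed here. RefSeq promoter windows matched 40 of 53 members by symbol. A member is not reported here by name.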

Additional observations from a re-analysis of the deposited data

How the results depend on the processing

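Drd1 was higher and passed in all 18 alternatives, with log2 fold changes from 1.58 to 2.05. The number of receptor genes higher was 1; it was 2 with quantile normalisation, DESeq2, without culture 3 of both groups, and the replicate block (alone, with equal totals or with quantile normalisation), the second being Adrb1 each time. Leaving out 1 library gave 1 to 2 genes higher and 0 to 1 lower. The number lower was 0; it was 1 with the block (Chrm1), 2 without culture 3 of both groups and with the block and quantile normalisation (Adra2a and Chrm1 in each), and 9 with the block and equal totals. Equal totals moved the median of all genes to -0.11 (log2), and 23.1% of all genes were then lower with the block, so these 9 are read relative to that shift; Drd1 was then at 1.67. The combinations of block and scaling were chosen after seeing the data. Of 594 member values under the alternatives, 22 gained a call, none lost one, and none with a call in either fit changed sign. Apart from the calls given in the report, the block without another scaling changed no call of a member. Members under a mean of 10 are limited by depth.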
